A study of Homo sapiens with 2 samples.

Results

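The strongest SOX9-enriched regions of VCaP chromatin are described here: the peaks of a SOX9 ChIP-seq list with a deposited score of 40 or more on chromosomes 1 to 22. They were 977 of the 7437 autosomal peaks (13.1%) and of the 7547 peaks in the list as a whole. Another 6 peaks reached that score on the X chromosome and are outside the set. The members were chosen by their deposited score, so scores are given as a description only, as is everything that the peak calls share with the score, such as width.

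VCaP is an established human prostate cancer cell line with a TMPRSS2-ERG gene fusion and high basal SOX9, and it was grown in DMEM with 10% fetal bovine serum. The data were 1 library from chromatin immunoprecipitated with the SOX9 antibody AB5535 and 1 library of input chromatin from the same line, which was sonicated and not immunoprecipitated. With 1 library each there was no replicate error to set beside any value, no p-value was computed, and intervals cover counting error over peaks only. Peak names mark the SOX9 list as replicate 2. How many reads stand behind either list is unknown.

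SOX9 is a transcription factor of the SOX family. Its HMG-box domain binds short A/T-rich motifs in the minor groove of DNA and bends it, and the protein is known for its part in the development of cartilage, testis and several epithelia, the prostate among them. In ChIP-seq, a peak is a stretch of genome where sequenced fragments pile up. Its width reflects the fragment length as well as the number of bound sites that the caller joined, and its score usually reflects how far the pile-up stands above background. Positions are in hg18, the build named by the submitters, and are counted from 1. Genes and sequence under the peaks were not analysed here, since the gene tables used here are in another build.

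The median score of the strong peaks was 71.3 (quartiles 53.2 and 115), and the full range was 40.2 to 602. The remaining 6460 autosomal peaks, called weaker peaks below, had a median score of 6.90. Most strong peaks lay not far above the threshold: 356 scored from 40 to under 60 and 309 from 60 to under 100, while 241 scored from 100 to under 200 and 71 scored 200 or more. Scores were not all distinct. The 977 peaks had 627 different scores, 478 of them shared their score with another strong peak, and a single score was carried by 16 peaks, so neighbouring ranks are often ties. The unit of the score is not stated in the sources.

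**Figure D1:**
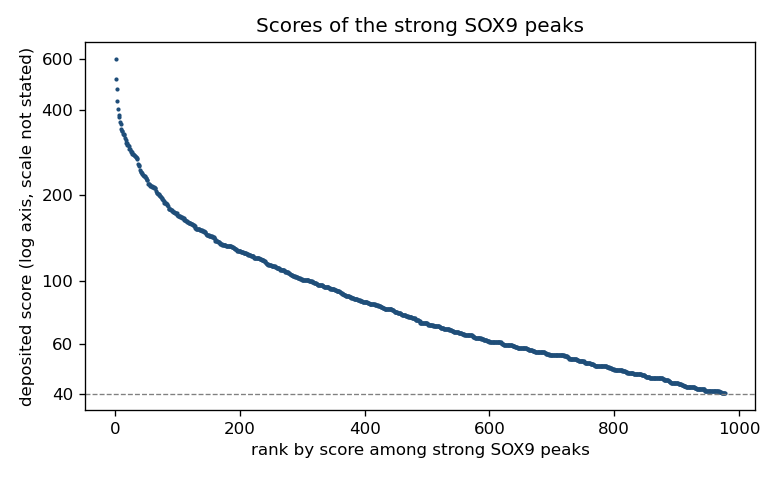
Deposited score (log axis) of each of the 977 strong SOX9 peaks against its rank, with a dashed line at the threshold of 40. Few peaks stand high: 71 points lie at 200 or above, and the median is 71.3.

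The threshold cut through a continuous range. The lowest members given by position were at chr11:65944771-65945929 with a score of 40.2, and at chr12:94861073-94861624 and chr1:3557837-3559596, both with a score of 40.4. Just outside lay chr11:124967608-124968120 with 39.8, and chr17:57295547-57295922 and chr20:44468531-44468919, both with 39.7. From 38 to under 40 there were 44 peaks with a median width of 632 bp, and from 40 to under 42 there were 46 with a median width of 727 bp. No other SOX9 peak lay within 12500 bp for 81.8% of the former and 65.2% of the latter, shares of few peaks given without an interval. In the wider classes from 20 to under 40 and from 40 to under 60 the shares were 72.8% and 68.8%, with intervals that overlap.

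The 20 highest scores were spread over 11 chromosomes and went down to 301. Of these peaks, 15 were narrower than 1000 bp, the narrowest measuring 490 bp and the widest 2176 bp. A high score thus did not require a wide region. The peak at the top, chr15:96304430-96305689 with a score of 602, stood alone: the next SOX9 peak of any score was 348 kb away. The second, chr9:130882721-130883478 with a score of 511, had its nearest neighbour at 43.8 kb. The third, chr11:63709141-63710650 with a score of 471, lay in a crowded stretch with 127 other SOX9 peaks within 1 Mb, yet the nearest was 18.5 kb away. The fourth, chr11:67031964-67032765 with a score of 429, had a weaker peak at 2.40 kb.

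Peaks ranked 5 to 10 had other SOX9 peaks at varied distances. Those at chr7:149706974-149707712 (score 402), chr1:16891423-16893598 (score 384), chr11:550623-551284 (score 362) and chr1:1324389-1324945 (score 342) had a weaker peak 4.36, 2.73, 4.04 and 7.67 kb away. The peaks at chr17:45221267-45221863 (score 377) and chr19:54961375-54962198 (score 355) had none within 12500 bp, and the nearest peak to each was another strong one, at 24.3 and 88.9 kb.

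Below them came chr3:39400546-39401081 with a score of 337, a peak of 536 bp whose nearest neighbour was 231 kb away. On chromosome 19 followed chr19:6375737-6376610 with a score of 336 and chr19:14089421-14090029 with a score of 325, which had strong neighbours at 51.8 and 18.3 kb. The peak chr9:138900093-138900892, with a score of 329, had 55 SOX9 peaks within 1 Mb. By contrast, chr14:91858755-91860355, with a score of 327, had 3 within that distance, and chr3:151013429-151013918, with a score of 318, had 2. The latter was the narrowest of the 20, at 490 bp, and both its neighbours were over 700 kb away. Such sites are strong peaks in otherwise sparse surroundings.

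The last of the 20 were chr13:110165632-110166422 with a score of 313, chr1:29010740-29012430 with a score of 306 and chr14:68515514-68516131 with a score of 301. The first of these lay 1.82 kb from a second strong peak and had a weaker peak 303 bp away. The last had a weaker peak 254 bp away. These were the 2 of the 20 with a weaker peak within 1 kb, which 12.6% of all strong and 21.9% of all autosomal peaks had. No other SOX9 peak lay within 12500 bp for 12 of the 20, and for 73.4% of all strong and 63.8% of all autosomal peaks. The 20 thus did not stand out as isolated. The remaining member of the 20 was on chromosome 8.

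Strong peaks were wide as a set. Their median width was 796 bp, with quartiles of 510 and 1295 bp, and the weaker peaks had a median width of 378 bp, with quartiles of 286 and 580 bp. On each of the 22 autosomes the median was larger for strong than for weaker peaks. Of the strong peaks, 386 (39.5%) measured at least 1000 bp and 61 (6.24%) at least 2000 bp, compared with 10.8% and 0.995% of all autosomal peaks. No strong peak was narrower than 300 bp, and neither was any of the 850 peaks scoring from 20 to under 40. Of the weaker peaks as a whole, 29.2% were under 300 bp, all of them with a score under 20. Together the strong peaks covered 951 kb, which was 23.3% of the length covered by autosomal SOX9 peaks. Width and score come from the same calls, so these differences are not tested.

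Width rose with score only in the lower part of the list. The median was 287 bp below a score of 5, 365 bp from 5 to under 10, 542 bp from 10 to under 20 and 694 bp from 20 to under 40. Within the strong peaks it was 789 bp from 40 to under 60, 823 bp from 60 to under 100, 752 bp from 100 to under 200 and 791 bp at 200 or more. Spearman's rho between score and width was 0.12 across the 977 strong peaks, against 0.54 across the 5610 peaks scoring under 20. Across the 850 peaks scoring from 20 to under 40 it was 0.063, so a weak relation was not particular to the strong set. These are descriptions across peaks of 1 library, which are not independent. Among strong peaks the median width therefore changed little with score. The narrowest measured 343 bp among the 356 peaks from 40 to under 60 and 449 bp among the 71 at 200 or more. A minimum tends to be larger among fewer peaks, so these values do not show that the lower limit moved with score.

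The distribution of strong widths had a dominant narrow part and a long wide part. Widths from 400 to under 600 bp accounted for 316 of the 977 peaks (32.3%). For the 312 peaks scoring 100 or more, the fullest 100 bp bin started at 500 bp and held 65 peaks. Their number then fell to 8 in the bin starting at 1000 bp and stayed between 5 and 14 in each bin up to 2000 bp, beyond which lay another 28. For the 665 peaks scoring from 40 to under 100, the fullest bin started at 400 bp with 149 peaks, and a low second rise reached 44 peaks in the bin starting at 1200 bp. A peak of 1000 bp or more was about equally frequent in both score classes, with 125 of 312 (40.1%) and 261 of 665 (39.2%). At least 2000 bp, however, was reached by 28 of 312 (8.97%) and 33 of 665 (4.96%).

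**Figure D2:**
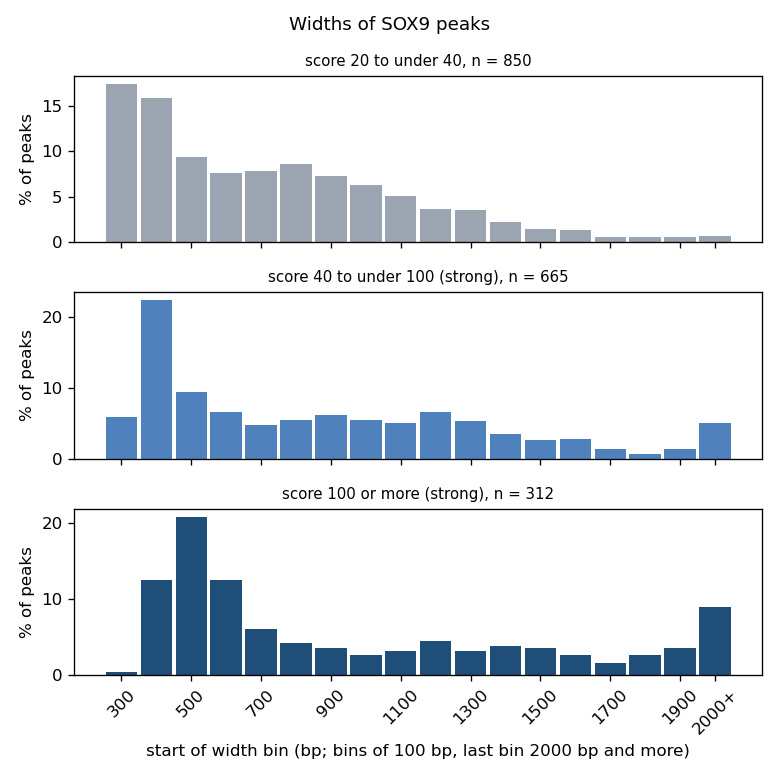
Share of peaks (%) in each 100 bp width bin, with all peaks of 2000 bp and more in the last bin, for peaks scoring 20 to under 40 (n = 850), 40 to under 100 (n = 665) and 100 or more (n = 312). The main mode moves from 300 to 500 bp with score, and among strong peaks a long wide part follows, with 28 of the 312 highest-scoring peaks at 2000 bp or more.

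The widest strong peaks had moderate scores. The first, chr4:186175113-186179033, was 3921 bp wide with a score of 160 and was followed after 62 bp by a second strong peak. At chr6:165994032-165997854 lay a solitary peak of 3823 bp with a score of 79.5, whose nearest neighbour was 323 kb away. The others were chr19:1417504-1420919 (3416 bp, score 82.9), chr17:71582013-71585351 (3339 bp, score 95.5) and chr13:109234576-109237884 (3309 bp, score 82.1). Of these, the chromosome 19 peak had a weaker peak within 1 kb on each side, at 54 and 455 bp, and the chromosome 13 peak had one at 67 bp. So 3 of the 5 widest members had another SOX9 peak within 100 bp, a count in a few peaks picked by width. Within 1 kb, another SOX9 peak was present for 13 of the 61 strong peaks of at least 2000 bp (21.3%, interval 11.9 to 33.7%). The share was 13.6% of all strong and 23.6% of all autosomal peaks.

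Of the 5 narrowest strong peaks, 3 were on chromosome 19. The 5 were chr17:27287918-27288260 (343 bp, score 56.1), chr19:1211799-1212142 (344 bp, score 50.02), chr3:49019505-49019863 (359 bp, score 47.6), chr19:20995063-20995422 (360 bp, score 42.3) and chr19:17281104-17281465 (362 bp, score 61.9). Each had another SOX9 peak within 25 kb, and none had one within 1 kb.

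That pattern held beyond these 5. On chromosome 19 only 15 of 112 strong peaks were at least 1000 bp wide (13.4%, exact Clopper-Pearson 95% interval 7.69 to 21.1%), against 39.5% of all strong peaks, and their median width was 577 bp, the lowest of the autosomes. Seen the other way, chromosome 19 held 97 of the 591 strong peaks under 1000 bp (16.4%, 13.5 to 19.7%) and 15 of the 386 at or above it (3.89%, 2.19 to 6.33%). The largest median widths were those of chromosome 15 (1259 bp, with 23 of 40 peaks at least 1000 bp wide), chromosome 13 (1207 bp, 12 of 20), chromosome 18 (1145 bp, 9 of 12) and chromosome 20 (1133 bp, 21 of 38). On chromosome 17 the share was 24 of 77 (31.2%, 21.1 to 42.7%), and chromosomes 14 (25%) and 22 (26.1%) had lower shares. The interval of chromosome 17 includes the 39.5% of all strong peaks, as do those of chromosomes 13 (36.1 to 80.9%) and 20 (38.3 to 71.4%). Chromosome 19 was also low for peaks scoring from 20 to under 40, where 9 of 71 were at least 1000 bp wide (12.7%, 5.96 to 22.7%), against 25.9% of all 850, so narrow peaks on chromosome 19 were not particular to the strong set.

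Strong peaks of 1000 bp or more were somewhat more frequent where SOX9 peaks were sparse. Of the 234 strong peaks with at most 4 other SOX9 peaks within 1 Mb, 126 were at least 1000 bp wide (53.8%, interval 47.2 to 60.4%). The share was 43.1% (37.1 to 49.4%) with 5 to 9 such neighbours, 35.4% (29.6 to 41.6%) with 10 to 19, and 25% (19.5 to 31.2%) with 20 or more. Without chromosome 19 the first and last shares were 53.8% (47.2 to 60.4%) and 32.7% (25.2 to 40.9%). For peaks scoring from 20 to under 40 the corresponding shares were 28.5% (23.3 to 34.1%) and 23.1% (16.6 to 30.8%), with intervals that overlap, while their median width fell from 784 to 608 bp. The relation was weak in both sets: Spearman's rho between width and the number of SOX9 peaks within 1 Mb was -0.17 across strong peaks and -0.12 across those scoring from 20 to under 40, as a description. Wide and narrow strong peaks had near-equal scores, with medians of 73.4 and 71.0. Wide ones had a median of 7 SOX9 peaks within 1 Mb and narrow ones 12.

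Most strong peaks stood apart from other peaks. Of the 977, 717 (73.4%, interval 70.5 to 76.1%) had no other SOX9 peak of any score within 12500 bp, edge to edge, against 63.8% of all autosomal peaks and 62.4% (61.2 to 63.6%) of weaker peaks. The share was higher for strong than for weaker peaks on 21 of the 22 autosomes. It was not, however, particular to the strong set. Peaks scoring from 20 to under 40 gave 72.8% (69.7 to 75.8%), and those under 20 gave 60.8% (59.5 to 62.1%). The share rose from 54.7% below a score of 5 to 68.6% from 10 to under 20, and within the strong peaks it was 68.8%, 78.3%, 74.3% and 71.8% from the lowest to the highest score class, with no steady direction. After joining peaks up to 500 bp apart, the shares were 81.4% for strong peaks, 83.6% from 20 to under 40 and 77.0% under 20.

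**Figure D3:**
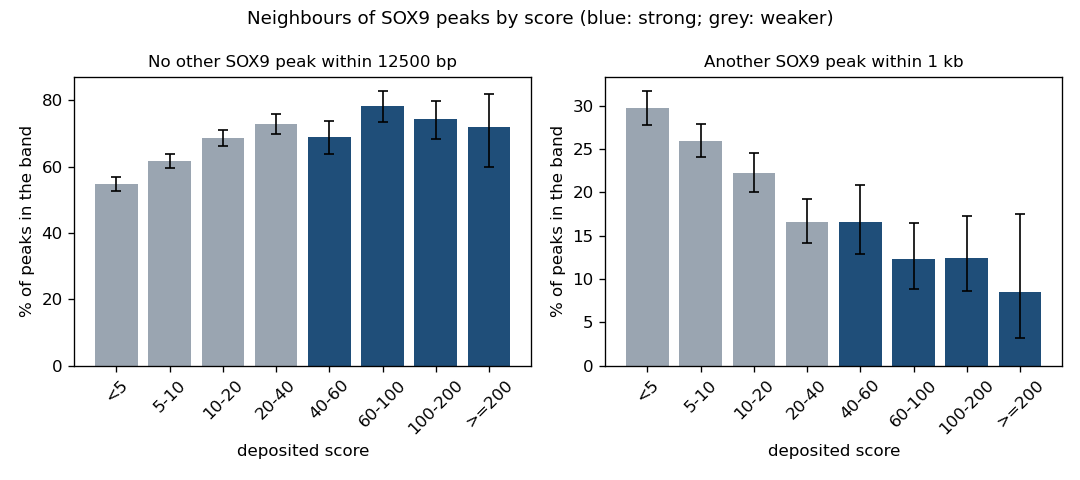
Share of autosomal SOX9 peaks (%) with no other SOX9 peak within 12500 bp (left) and with another within 1 kb (right) by score class, with exact Clopper-Pearson 95% intervals. Blue bars are strong peaks: isolation levels off at about the 72.8% of the class from 20 to 40, while a neighbour within 1 kb is found for 16.6% from 40 to 60 and 8.45% at 200 or more.

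Immediate neighbours were less frequent at strong peaks than in the list as a whole. Another SOX9 peak within 1 kb was present for 133 strong peaks (13.6%, interval 11.5 to 15.9%), against 23.6% of all autosomal peaks. The share was 29.7% below a score of 5, 16.6% both from 20 to under 40 and from 40 to under 60, 12.3% from 60 to under 100, 12.4% from 100 to under 200 and 8.45% (3.16 to 17.5%) at 200 or more. At longer range the difference shrank. Within 100 kb a neighbour was present for 61.6% (58.5 to 64.7%) of strong and 68.5% (67.3 to 69.6%) of weaker peaks, and both sets had a median of 9 SOX9 peaks within 1 Mb. The median distance to the nearest peak was 54.9 kb for strong and 37.3 kb for weaker peaks. Neither long-range difference was particular to the strong set. Of the peaks scoring from 20 to under 40, 57.9% (54.5 to 61.2%) had a neighbour within 100 kb. Their median distance to the nearest peak was 66.2 kb.

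A weaker peak lay within 1 kb of 123 strong peaks (12.6%, interval 10.6 to 14.8%), compared with 21.9% of all autosomal peaks that had a weaker neighbour so close. For peaks scoring from 20 to under 40 the share was 15.5% (13.2 to 18.1%), with an interval that overlaps that of strong peaks. Once peaks up to 500 bp apart were joined, 3.71% of strong peaks had one. These 123 strong peaks had 134 such flanking records from 132 different weaker peaks, since a weaker peak between a pair of strong ones counts for both. There were 112 strong peaks with 1 flanking peak, 11 with 2, and none with more. They were found on both sides alike, with 66 at lower and 68 at higher coordinates, and 9 strong peaks were flanked on both sides. The median gap was 294 bp (quartiles 141 and 503 bp) and the smallest 52 bp, close to the 51 bp that was the smallest gap between any neighbouring peaks in the autosomal list. Flanking peaks had a median score of 5.69 and a median width of 360 bp, against 6.90 and 379 bp for the 6328 weaker peaks without a strong peak within 1 kb. Strong peaks with a flanking peak had a median width of 1036 bp and those without one of 751 bp, while their median scores were 67.1 and 74.2.

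A few strong peaks were far from any other. Of the 977, 19 (1.94%, interval 1.17 to 3.02%) had no SOX9 peak within 1 Mb, against 2.25% of all autosomal peaks, a share near that background. The farthest was chr18:61568693-61569831, a peak of 1139 bp with a score of 72.1 and its nearest neighbour 2.43 Mb away. It was followed by chr20:52222555-52223963 (1409 bp, score 139.96, 2.18 Mb), chr6:114770057-114771327 (1271 bp, score 40.8, 1.76 Mb), chr3:6877595-6878794 (1200 bp, score 55.2, 1.64 Mb) and chr5:124015146-124015536 (391 bp, score 65.4, 1.55 Mb). Among these 5, 4 were wider than 1000 bp. Of the 234 strong peaks with at most 4 other SOX9 peaks within 1 Mb, 53.8% were at least 1000 bp wide.

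At the other extreme, some strong peaks rose out of groups of weaker ones. Of the 977, 81 (8.29%, interval 6.64 to 10.2%) lay in runs of 3 or more SOX9 peaks with gaps of at most 12500 bp, against 13.7% of all autosomal peaks and 7.88% (6.16 to 9.90%) of those scoring from 20 to under 40. Of the 278 autosomal runs, 71 contained a strong peak and 10 contained at least 2. Of the 6 runs with 10 or more peaks, 2 held a strong peak. Both were on chromosome 11. In the first, chr11:63882701-63884845, with a width of 2145 bp and a score of 120, had 9 weaker peaks within 12500 bp. In the second, chr11:63815008-63817374, with a width of 2367 bp and a score of 123, had 5. A narrow peak on chromosome 1, chr1:153241088-153241543 (456 bp, score 155), also had 5, with one on each side at 689 and 322 bp.

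Strong peaks were seldom close to one another, and about as small a share of weaker peaks lay close to a strong one. A weaker peak lay within 12500 bp of 236 strong peaks (24.2%), against 33.6% of all autosomal peaks. The median gap between consecutive strong peaks was 1017 kb (quartiles 276 and 2840 kb) over 955 gaps, with a median of 4 weaker peaks in between (quartiles 1 and 9). In 140 of the gaps (14.7%, interval 12.48 to 17.1%) no weaker peak intervened, a share near the 13.1% of autosomal peaks that were strong. Only 20 gaps (2.09%) were at most 12500 bp, and they formed 20 separate pairs on 13 chromosomes, with no run of 3 or more. Thus 40 strong peaks (4.09%, 2.94 to 5.53%) had another strong peak within 12500 bp, against 4.97% (4.45 to 5.53%) of the weaker peaks. For peaks scoring from 20 to under 40 the share was 3.88% (2.69 to 5.41%), so it was not particular to the strong set. The 4.09% fell to 2.58% with a threshold of 60 and to 2.68% when peaks up to 500 bp apart were joined. Chromosome 19 held 6 of the pairs.

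The 2 peaks of a pair usually differed in score. The ratio of the higher to the lower had a median of 1.74 and ranged from 1.01 to 4.78, and in 3 pairs both peaks scored 100 or more. The pair with the largest summed score was on chromosome 13, where chr13:110163273-110163816 (score 138) and chr13:110165632-110166422 (score 313) were 1815 bp apart with 1 weaker peak between them. On chromosome 19, chr19:47464180-47465388 (score 216) and chr19:47476234-47476735 (score 125) were 10845 bp apart with none between. On chromosome 20, chr20:62139553-62141118 (score 271) and chr20:62150503-62151493 (score 67.7) were 9384 bp apart.

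Chromosome 12 held the next pairs by summed score. In one, chr12:115800756-115801465 (score 57.0) and chr12:115801589-115804059 (score 272, width 2471 bp) were separated by 123 bp, and they had the largest score ratio of all pairs. In the other, chr12:52959519-52960060 (score 101) and chr12:52960416-52960914 (score 145) were separated by 355 bp, and both were under 600 bp wide. In all, 6 pairs had a gap under 1 kb, and 16 had no weaker peak between their members. Joining all peaks up to 500 bp apart left 970 strong regions.

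Over chromosomes, strong peaks followed the weaker ones except mainly on chromosome 19. Chromosome 19 held 112 strong peaks, which was 11.5% of the set (interval 9.53 to 13.6%), against 6.53% (5.94 to 7.16%) of weaker peaks, and it was the only autosome on which these intervals did not overlap. Of all SOX9 peaks on chromosome 19, 20.97% were strong (17.6 to 24.7%), compared with the 13.1% of all autosomes together. The share of chromosome 19 was graded and began to rise below the threshold: it was 5.93% of peaks from 10 to under 20, 8.35% from 20 to under 40, and 10.1%, 11.7%, 12.4% and 14.1% in the 4 strong classes from the lowest to the highest score. The strong share was lowest on chromosomes 21 (15 of 177, 8.47%, 4.82 to 13.6%) and 6 (30 of 323, 9.29%, 6.35 to 12.99%). Besides chromosome 19, only the interval of chromosome 6 left out the autosomal share, and among 22 intervals some can do so through counting error alone. The strong shares on chromosomes 17 (77 of 517, 14.9%, 11.9 to 18.3%), 11 (69 of 567, 12.2%, 9.59 to 15.1%) and 1 (92 of 666, 13.8%, 11.3 to 16.7%) were near that of all autosomes.

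**Figure D4:**
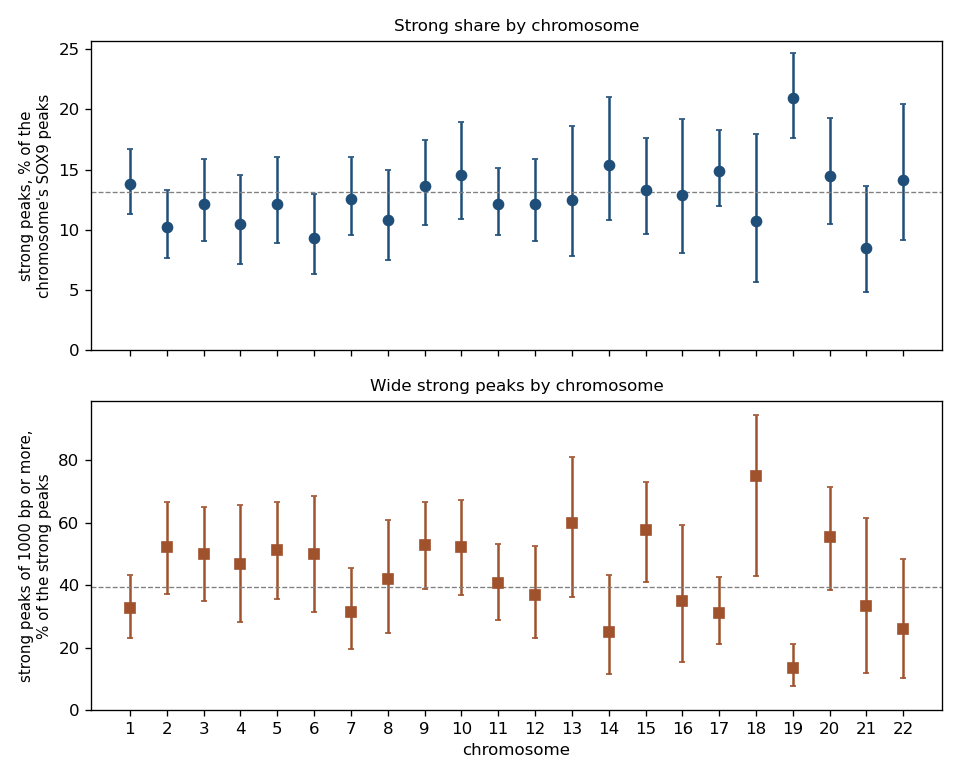
For each autosome, strong peaks as a share of its SOX9 peaks (top, %) and strong peaks of 1000 bp or more as a share of its strong peaks (bottom, %), with exact Clopper-Pearson 95% intervals and dashed lines at the values for all autosomes, 13.1% and 39.5%. Chromosome 19 is high in the upper panel, at 20.97%, and low in the lower one, at 13.4%.

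Relative to the length up to the last peak of either list, strong peaks were densest on chromosome 19, at 1.76 per Mb (exact Poisson 95% interval 1.45 to 2.11). Chromosome 17 came next at 0.979 (0.773 to 1.22), ahead of chromosome 20 at 0.609 (0.431 to 0.835). The density of chromosome 11 was 0.516 (0.402 to 0.653). The value for all autosomes was 0.341. By this measure the sparsest autosomes were chromosome 4 at 0.157 (0.106 to 0.224) and chromosome 18 at 0.158 (0.0815 to 0.275). Chromosomes 6 (0.119 to 0.251) and 13 (0.108 to 0.272) both had 0.176. The length is counted from the chromosome start, so it includes windows there that held no SOX9 peak. These were the windows before 15 Mb on chromosomes 13, 14, 15 and 22, and before 10 Mb on chromosome 21. This lowers the densities of these chromosomes, and the order of chromosomes can depend on it. The median gap between consecutive strong peaks was 197 kb on chromosome 19 and 2899 kb on chromosome 18. Across the 22 autosomes, strong and weaker peaks per Mb had a Spearman's rho of 0.91, given as a description of chromosomes that share 1 library. Copy number in VCaP was not measured, so densities are not corrected for it.

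Median scores of the strong peaks ranged from 59.5 on chromosome 10 to 90.7 on chromosome 16. A score of 200 or more was reached by 71 of the 977 strong peaks. These were 10 of 112 on chromosome 19, 7 of 69 on chromosome 11, 6 of 54 on chromosome 7, and none of 12 on chromosome 18 or of 15 on chromosome 21, numbers too small to rank the chromosomes. The highest score on chromosome 18 was 111, among only 12 strong peaks.

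In windows of 5 Mb, strong peaks were found in 358 of 584 autosomal windows (61.3%), and 144 of these held exactly 1. The 10 fullest windows held 141 strong peaks (14.4%). They were ranked by their number of strong peaks, which raises this share, so it is not a measure of how concentrated strong peaks were. On chromosome 19, the window from 0 to 5 Mb held 21 strong and 61 weaker peaks, the window from 15 to 20 Mb held 16 and 56, and the window from 50 to 55 Mb held 16 and 67. The first of these contained 9 strong peaks between 1 and 2 Mb. Of the 12 windows with 10 or more strong peaks, 6 were on chromosome 19, and the others were on chromosomes 5, 11, 16 and 17. Across all windows, strong and weaker counts had a Spearman's rho of 0.64, as a description.

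The strong share of a window varied. On chromosome 11 the window from 60 to 65 Mb held 11 strong among 150 peaks (7.33%, interval 3.72 to 12.7%) and the window from 65 to 70 Mb held 14 among 129 (10.9%, 6.06 to 17.5%), so both were among the windows with the most strong peaks, and only the first had an interval that left out the 13.1% of all autosomes. The window from 40 to 45 Mb of chromosome 21 held 2 strong peaks among 64 (3.13%, 0.381 to 10.8%). Higher shares were found in the window from 0 to 5 Mb of chromosome 16, with 10 strong among 37 (27.0%, 13.8 to 44.1%), and that from 5 to 10 Mb of chromosome 19, with 8 among 24 (33.3%, 15.6 to 55.3%). The most populated window without any strong peak was that from 0 to 5 Mb of chromosome 12, with 25 weaker peaks (0%, interval up to 13.7%). These windows were singled out after their values had been seen.

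**Figure D5:**
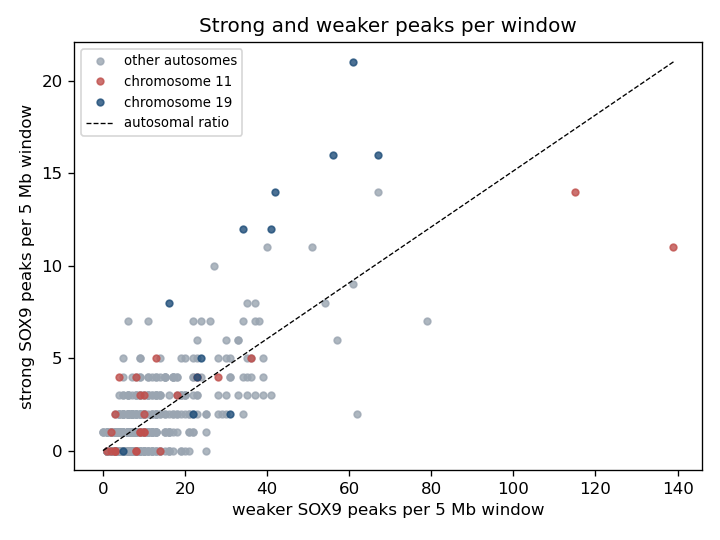
Strong against weaker SOX9 peaks in each 5 Mb autosomal window that held a SOX9 peak, with a dashed line at the ratio over all autosomes. The fullest windows of chromosome 19 lie above the line, with up to 21 strong peaks, and the 2 windows of chromosome 11 with 139 and 115 weaker peaks lie below it, with 11 and 14 strong peaks.

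Long stretches held weaker peaks only. Between strong peaks ending at 45859914 and starting at 94161184 on chromosome 13, a distance of 48.3 Mb, there were 27 weaker peaks, the highest with a score of 38.1. Distances of 33.1 Mb on chromosome 9 and 31.0 Mb on chromosome 1 included stretches of 20.9 Mb each without any SOX9 peak. Whether reads can be placed in such stretches of hg18 was not examined, so a lack of peaks there is not a measure of SOX9 binding. On chromosome 6, a distance of 30.6 Mb between strong peaks held 51 weaker peaks with no score above 33.5. In all, 68 gaps between consecutive strong peaks exceeded 10 Mb. These stretches, too, were chosen after their values had been seen.

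At the high-coordinate ends of chromosomes, the strong and weaker shares were close. Within 5 Mb of the last SOX9 peak of a chromosome lay 98 strong peaks (10.0%, interval 8.22 to 12.1%), against 11.5% of all autosomal peaks and 11.7% (10.9 to 12.51%) of weaker ones.

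Few strong peaks overlapped a called input peak, as was the case for the whole list. Of the 977 peaks, 2 (0.205%, interval 0.0248 to 0.738%) shared at least 1 bp with 1 of the 401 input peaks, against 0.430% of all autosomal peaks, a value inside that interval. The same 2 were the strong peaks within 10 kb of an input peak, against 0.699% of all autosomal and 0.774% of weaker peaks. One was chr1:154452753-154453371, with a SOX9 score of 40.6, of which 79.3% was covered by an input peak of 491 bp. The other was chr20:26137794-26138473, with a score of 52.3, of which 69.9% was covered by an input peak of 475 bp. Both scored below the median of the strong peaks. No source states whether input served as the control in peak calling, which would by itself remove such overlaps.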

How the data were processed

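Both peak lists in hg18, 1 for the SOX9 ChIP library and 1 for input, were used as deposited by the authors. The submitters' processing notes name CASAVA 1.8.2. Aligner, peak caller, calling threshold and use of a control are not stated in the sources. Each peak has a score deposited by the authors, whose scale is not stated, so scores only rank or filter peaks within a list. Peaks with a score of 40 or more on chromosomes 1 to 22 were selected. Distances are from edge to edge, with 12500 bp for neighbours and 1 kb for flanking peaks. Runs are 3 or more peaks with gaps up to 12500 bp. Shares have exact Clopper-Pearson and densities exact Poisson 95% intervals, as if peaks were independent. PCR-amplified reads are not independent molecules, so intervals cover counting error only.

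Members, classes and lists were chosen with earlier results of these data known. Regions given by position are the 20 highest scores, the 5 widest, narrowest and most distant strong peaks, the 5 pairs with the largest summed score, the 3 with the most weaker neighbours, the 3 just inside and the 3 just outside the threshold, and those overlapping input. Those on chromosome 8 are counted but not given by position. Width and density classes were added after the values had been seen. Genes and motifs were planned and not run, since the tables used here are in another build. Counting was tested on simulated data. Tables were made in Python 3.11.15 with pandas 2.3.3 and numpy 2.4.6, intervals with scipy 1.17.1 and plots with matplotlib 3.10.9.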

Additional observations from a re-analysis of the deposited data

How the results depend on the processing

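Under the alternatives, 140 of 154 values lay inside the 95% interval of the main value (counts: within 1.5 times it), the shares of all 22 chromosomes among them. Most of the 154 were these chromosome shares. Several alternatives also changed few members, leaving 970, 975 or 983 strong peaks, so values could hardly move. The count is therefore not a measure of robustness. A threshold of 60 gave 621 strong peaks, of which 2.58% had another strong peak within 12500 bp and 0 overlapped input. Removal of SOX9 peaks that overlap input also gave 0 by construction. Merging peaks within 500 bp moved the median width to 875 bp, the share without a SOX9 neighbour within 12500 bp to 81.4%, the share with a weaker peak within 1 kb to 3.71% and that with another strong peak within 12500 bp to 2.68%. After this merging the share without a neighbour was 83.6% for peaks from 20 to under 40 and 77.0% under 20, so the difference between strong peaks and those under 20 narrowed. Distances of 5 and 25 kb gave shares without a neighbour of 80.0% and 65.0%, and shares with a strong neighbour of 2.25% and 6.14%. A weaker peak within 5 kb was present for 18.3%. Windows of 1 Mb gave 661 windows with a strong peak. Leaving out the 60 to 70 Mb stretch of chromosome 11, added after the data had been seen, left 74.1% without a neighbour. Leaving out replicates does not apply to single libraries. No paired analysis was possible because each group had 1 sample. The read depth is unknown, so no limit of detection can be given.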
